A study of Mus musculus with 6 samples.

Results

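Fibroblasts carrying 2 copies of a deletion of exon 2 of Cas were compared with fibroblasts carrying 1 copy, across all autosomal genes of an expression array. Cas, the product of Bcar1, is also called p130Cas. All 4 arrays of these 2 genotypes entered, of 6 arrays in the series. Of 45037 probe sets that are not array controls, 33729 were placed on an autosome through their gene, and 19343 of these were bright enough to be tested. They stand for 10980 tested genes of 17516 autosomal genes on the array, each gene read from its brightest tested probe set. The other 14386 autosomal probe sets were below the brightness filter and got no test. The remaining 2 arrays came from embryos without the deletion and are given beside the results as a reference.

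Mice heterozygous for the exon 2 deletion (Cas exon 2+/∆) were mated with each other, and embryos were taken at 12.5 days after conception. The head and inner organs of each embryo served for genotyping, and primary fibroblasts were grown from what was left. The homozygotes (Cas exon 2∆/∆) therefore had 0 intact copies of exon 2, the heterozygotes (Cas exon 2+/∆) 1 and the wild type (Cas exon 2+/+) 2, with 2 embryos each. The strain is labelled B6 on the mutant arrays. All cells grew at 37 °C and 5% CO2 in DMEM, a standard culture medium, with 10% fetal calf serum and antibiotics, and 2 µg of total RNA was labelled per array. Embryos of 1 genotype are separate animals, but the labels name neither litter, passage nor sex. Primary embryonic fibroblasts are a mixed population that can include other cell types of the embryo body. The deletion was present in the whole embryo, so a difference between cultures includes whatever cells the embryo supplied.

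Cas is a scaffold protein of focal adhesions, the sites where integrins tie the cell to the extracellular matrix. It carries an SH3 domain that binds partners such as focal adhesion kinase, and a substrate domain whose tyrosines are phosphorylated by Src family kinases and then recruit the adaptor Crk, which feeds into Rac signalling, actin remodelling and migration. In fibroblasts Cas is known for its part in stress fibre organisation, spreading and transformation by Src.

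The promoters of 3 macrophage and interferon-response genes are shown here because later paragraphs refer to them. Each line gives the 250 bases before the transcription start, 5′ to 3′ on the gene's own strand, from RefSeq (GRCm38.p6). Capitals mark a match on either strand to GAAA, any 2 bases and GAAA again, the core of the interferon-stimulated response element, in Rsad2 and Cxcl10, and to GAGGAA, a core bound by the myeloid factor PU.1, in C1qc.
Rsad2 (chr12:26456453-26456702, minus strand): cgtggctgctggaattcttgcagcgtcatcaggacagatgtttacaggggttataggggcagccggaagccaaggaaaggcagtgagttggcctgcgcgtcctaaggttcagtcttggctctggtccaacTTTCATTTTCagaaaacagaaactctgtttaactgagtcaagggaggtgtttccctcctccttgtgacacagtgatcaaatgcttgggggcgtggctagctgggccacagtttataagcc
Cxcl10 (chr5:92348890-92349139, minus strand): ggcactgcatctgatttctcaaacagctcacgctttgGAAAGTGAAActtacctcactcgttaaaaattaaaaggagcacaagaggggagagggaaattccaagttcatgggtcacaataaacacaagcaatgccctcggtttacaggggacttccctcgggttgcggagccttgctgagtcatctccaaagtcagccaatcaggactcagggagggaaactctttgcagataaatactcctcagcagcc
C1qc (chr4:136892915-136893164, minus strand): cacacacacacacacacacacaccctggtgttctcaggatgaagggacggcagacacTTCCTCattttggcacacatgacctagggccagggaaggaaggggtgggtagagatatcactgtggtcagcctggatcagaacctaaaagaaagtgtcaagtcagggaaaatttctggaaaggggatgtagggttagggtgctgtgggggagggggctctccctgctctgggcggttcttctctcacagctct
The match began 120 bases before the start in Rsad2, 213 in Cxcl10 and 193 in C1qc. Shares of promoters with a match, given below, also count the 50 bases after the start. A match is a description of the letters and not evidence of binding.

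The array did not separate the genotypes at Bcar1 itself. Its log2 intensity was 8.08 and 8.43 in the homozygotes, 8.19 and 8.32 in the heterozygotes and 9.37 and 8.42 in the wild type. The homozygote minus heterozygote difference was -0.0021 (SE 0.35), or 0.95 in a fit that adds embryo sex as a term, and that of the other tested Bcar1 probe set was -0.14. The position of these probe sets relative to exon 2 was not analysed here, so these values do not test the labelled genotype. Efs, a member of the same scaffold family, had 7.77 and 8.16 in the homozygotes against 7.60 and 7.72 in the heterozygotes, a difference of 0.30 (SE 0.24), while its other probe set gave -0.17.

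The arrays carried the marks of fibroblasts, and the genotypes differed in sex-linked genes. Over the 4 arrays the fibroblast genes Col1a1, encoding type I collagen, Vim, encoding the intermediate filament vimentin, and Thy1, encoding a surface glycoprotein, were bright, at 12.9 to 13.4, 13.7 to 13.75 and 11.5 to 12.4. Xist, the RNA that silences one X chromosome in female cells, was at 3.70 and 5.31 in the homozygotes and at 10.27 and 10.29 in the heterozygotes. Eif2s3y, a Y-linked translation factor gene, was at 8.76 and 8.61 in the homozygotes and at 1.24 and 1.70 in the heterozygotes. By these genes both homozygous cultures were of male pattern and both heterozygous cultures of female pattern, and wild type 1 was female and wild type 2 male. Within these 4 arrays genotype and embryo sex therefore cannot be told apart. A fit that adds sex as a term can be made, but it takes the effect of sex from the wild type arrays alone, 1 of each sex, and its values are given below for the genes and several of the lists whose sign they turn. Of 115 genes that were examined singly, 6 turned their sign with this term and a further 28 had a difference over 1.5 times smaller. Most of them were chosen for a small p, which counts the spread between the wild type arrays. These counts therefore do not stand for all genes. The medians of the macrophage, interferon and chemokine lists below turned from 1.24, 0.67 and 0.74 to -0.20, -0.60 and -0.39. Those of the Hox and collagen lists kept their sign.

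**Figure D1:**
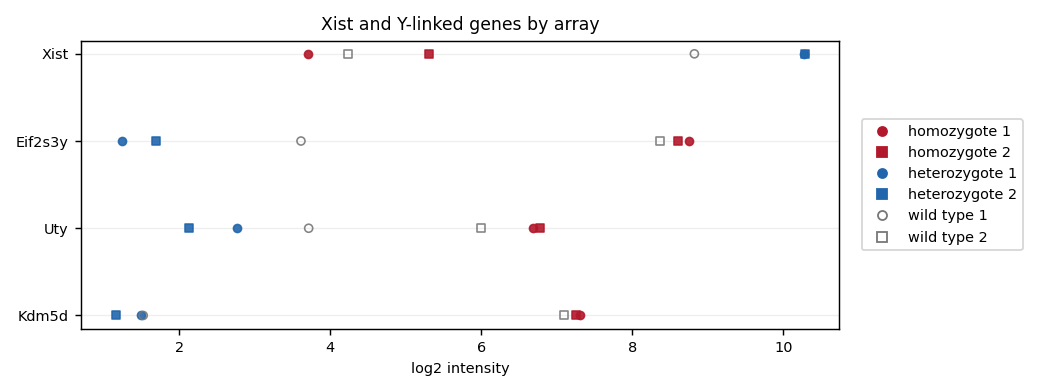
Log2 intensity of sex-linked genes in each of the 6 arrays, with filled points for the homozygotes and heterozygotes and open points for the wild type. Xist was at 3.70 and 5.31 in the homozygotes against 10.27 and 10.29 in the heterozygotes, and Eif2s3y was at 8.76 and 8.61 against 1.24 and 1.70.

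No autosomal gene was called. In limma's moderated test with Benjamini-Hochberg adjustment over all tested probe sets, 0 of 19343 probe sets passed an adjusted p of 0.05 (0%), and the adjusted p was 1 for every one of them. Without adjustment 400 probe sets had a p under 0.05 (2.07%), 213 of them higher (1.1%) and 187 lower (0.967%) in the homozygotes. With 2 arrays against 2 an exact two-sided permutation test of a single gene cannot give a p below 0.3333. The results below are therefore measured values and not calls, and "higher" and "lower" give only the direction of the homozygote mean against the heterozygote mean.

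Single arrays differed within a genotype about as much as between genotypes. The median absolute log2 difference was 0.32 between the homozygotes and 0.28 between the heterozygotes, and it ranged from 0.22 to 0.31 over the pairs of a homozygote and a heterozygote. Homozygote 1 correlated better across genes with heterozygote 2 (Pearson r = 0.9703) than with homozygote 2 (r = 0.953). Genes are not independent replicates, so these correlations describe the arrays only. Of the 10980 genes, 1145 had both homozygotes above both heterozygotes (10.4%) and 1372 had both below (12.5%). Adding a mean difference of at least 1 log2 left 104 genes higher (0.947%) and 40 lower (0.364%). The median difference over all genes was -0.015, with the 5th and 95th percentiles at -0.48 and 0.46. In what follows, a list member is called above or below where both homozygotes were above or below both heterozygotes, and its count is to be read against these 10.4% and 12.5%. A list's median difference is followed, where leaving out 1 of the 4 arrays turned its sign or moved it by over 1.5 times, by its range over those 4 settings or by the arrays concerned. Without normalization between arrays the median over all genes was -0.126, and 101 of the 424 probe sets with an unadjusted p under 0.05 were higher (23.8%), against 53.3% after normalization.

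**Figure D2:**
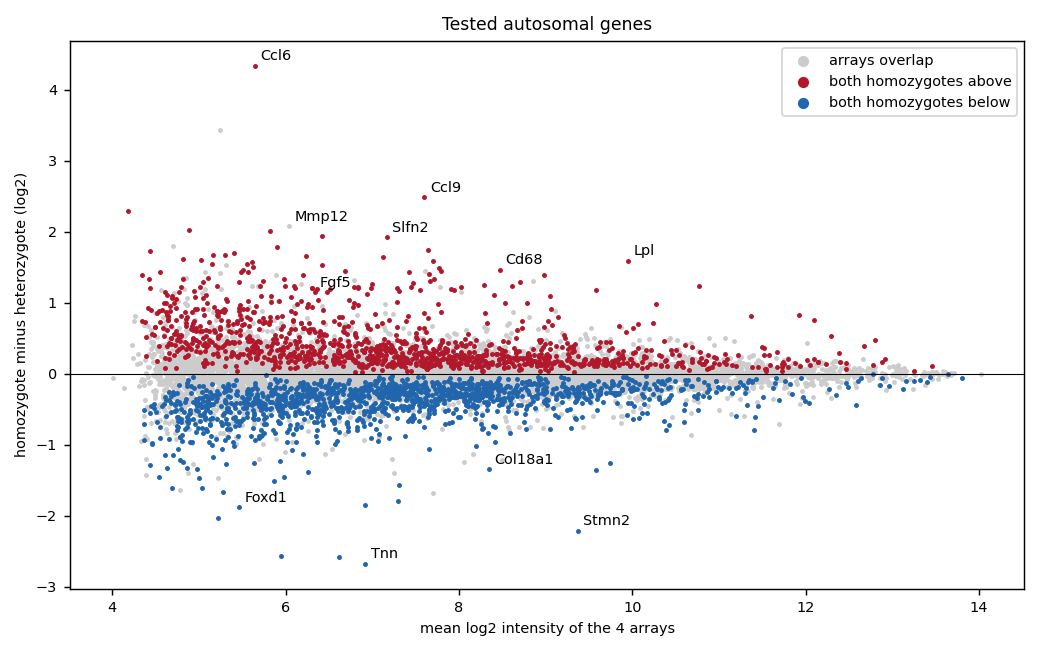
Each point is an autosomal gene, with its mean log2 intensity on the x axis and its homozygote minus heterozygote difference (log2) on the y axis. The median over the 10980 genes was -0.015, and labelled genes such as Stmn2 (-2.22), Tnn (-2.68), Slfn2 (1.92) and Ccl9 (2.49) lay far outside the range of most genes.

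Among the genes lower in the homozygotes, the one with the smallest unadjusted p was Stmn2, encoding stathmin 2, a regulator of microtubule assembly best known from growing axons. Its log2 intensity was 8.46 and 8.08 in the homozygotes, 10.19 and 10.77 in the heterozygotes and 10.82 and 10.64 in the wild type. The homozygotes were apart from all 4 other arrays, 4.65-fold below the heterozygotes (log2 difference -2.22, SE 0.29, unadjusted p = 0.000198 and adjusted p = 1 in limma). The other tested Stmn2 probe set gave -2.23. Tmem158, a transmembrane protein gene induced by Ras, had 6.03 and 6.21 in the homozygotes, 7.23 and 6.91 in the heterozygotes and 7.30 and 7.19 in the wild type (difference -0.95, SE 0.23). Cdh3, encoding the adhesion molecule P-cadherin, had 5.12 and 4.68 against 5.98 and 5.86 in the heterozygotes and 5.78 and 6.12 in the wild type (-1.03, SE 0.26). In these 3 genes both homozygotes were below both wild type arrays as well.

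In other leading lower genes the wild type lay elsewhere. Foxd1, a forkhead factor of stromal cells, had 4.94 and 4.11 in the homozygotes and 6.52 and 6.28 in the heterozygotes, a difference of -1.88 (SE 0.40), with the wild type between at 5.36 and 6.19. Map2, encoding a neuronal microtubule-associated protein, had 6.70 and 6.10 against 8.39 and 7.99 (-1.79, SE 0.51), and its other probe sets gave -1.55 and -1.76. Its wild type values of 4.96 and 6.46 lay below the heterozygotes as well. Rdh5, a retinol dehydrogenase gene, had 4.92 and 4.56 against 5.83 and 5.78 (-1.06, SE 0.27), and the wild type had 4.72 and 4.20. For Rdh5 and Map2 the heterozygotes were thus the arrays that stood apart. Cenpn, a centromere protein gene, was at 6.63 and 6.67 against 7.36 and 7.64 (-0.86, SE 0.22), but its other probe set gave -0.07.

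Larger but more variable gaps were found in Tnn, encoding the matrix protein tenascin N, and Scg2, encoding the secretory granule protein secretogranin II. Tnn was at 6.76 and 4.40 in the homozygotes, 8.45 and 8.07 in the heterozygotes and 4.71 and 7.36 in the wild type (difference -2.68, SE 1.03). Scg2 was at 5.48 and 5.16 against 8.63 and 7.19 (-2.59, SE 1.11), with wild type 1 at 1.48 and wild type 2 at 5.07. In both genes homozygotes and heterozygotes did not overlap, but at least 1 wild type array lay below a homozygote. Car3, a carbonic anhydrase gene of fat and muscle, differed by -2.04 (SE 0.55) and had wild type values of 3.55 and 4.25 near the homozygotes' 4.95 and 3.47.

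Slfn2, a Schlafen family gene induced by interferon in immune cells, had the smallest unadjusted p among the genes higher in the homozygotes. It was at 8.35 and 7.91 in the homozygotes, 5.98 and 6.45 in the heterozygotes and 6.96 and 7.42 in the wild type. The homozygotes were above all 4 other arrays and 3.78-fold above the heterozygotes (log2 difference 1.92, SE 0.30, unadjusted p = 0.0006 and adjusted p = 1 in limma). Selplg, encoding the leukocyte ligand of P-selectin, had 5.67 and 5.58 against 4.48 and 4.33, with 4.88 and 4.78 in the wild type (1.22, SE 0.21). Lyl1, a transcription factor gene of blood and endothelial cells, had 5.64 and 5.65 against 4.71 and 4.81, with 4.47 and 4.49 in the wild type (0.89, SE 0.21). Fgf5, encoding a fibroblast growth factor, had 6.87 and 6.95 against 5.79 and 5.74, with 5.51 and 5.29 in the wild type (1.15, SE 0.21). In all 4 genes the homozygotes were above both wild type arrays too, and the replicates of a genotype lay close together in Selplg, Lyl1 and Fgf5.

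For other leading higher genes the heterozygotes were again the low arrays. Ceacam1, an adhesion molecule gene, had 5.15 and 5.51 in the homozygotes, 2.24 and 3.83 in the heterozygotes and 6.11 and 5.33 in the wild type (difference 2.29, SE 0.55). Brsk1, encoding a kinase of neuronal polarity, had 6.02 and 5.63 against 3.90 and 4.55, with 6.05 and 6.39 in the wild type (1.60, SE 0.31). Both heterozygote values of Ceacam1 and of Brsk1 were below 4.575, the lowest 6-array mean that passed the filter. These 2 genes thus passed through their other arrays. The other Ceacam1 probe sets were all below the filter, with differences of either sign. Gng2, a G protein gamma subunit gene, had 7.55 and 8.24 against 6.58 and 6.88, with 8.25 and 7.79 in the wild type (1.16, SE 0.32), while its other probe sets gave 0.34 and 0.54. Hcrt, encoding the neuropeptide precursor hypocretin, had 5.63 and 5.61 against 4.61 and 3.40, with 6.43 and 6.18 in the wild type (1.61, SE 0.40). Aldh1a1, encoding a retinaldehyde dehydrogenase, had 7.57 and 8.03 against 6.76 and 6.81, with 7.42 and 7.47 in the wild type (1.01, SE 0.24). The 30 leading genes, 15 in each direction, kept their sign under every alternative that was run. They were chosen for arrays that do not overlap and for a small p, so this outcome was largely set by the choice. With sex as a term some differences were smaller, such as Rdh5 (-0.55, against -1.06 without it). Others were larger, such as Map2 (-3.28, against -1.79).

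**Figure D3:**
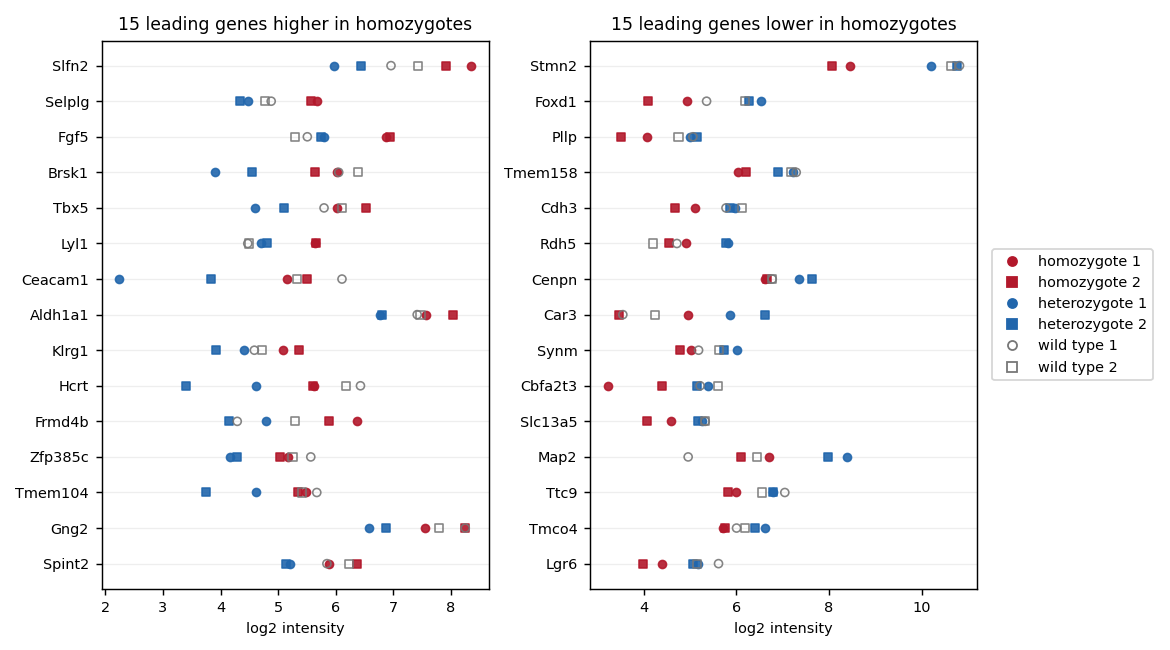
Log2 intensity of the 15 genes with the smallest unadjusted p in each direction, one symbol per array, red for homozygotes, blue for heterozygotes and open for wild type. In each gene the red and blue points do not overlap, as for Slfn2 (8.35 and 7.91 against 5.98 and 6.45), while the wild type points fall on either side.

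Macrophage genes were higher in both homozygous cultures. Of 24 tested markers, 22 had both homozygotes above both heterozygotes and 0 had both below, against 10.4% and 12.5% of all genes, and the median difference was 1.24. Cd68, a lysosomal glycoprotein gene of macrophages, was at 9.89 and 8.52 in the homozygotes, 7.92 and 7.56 in the heterozygotes and 7.42 and 8.60 in the wild type (1.47, SE 0.56). Cd53, a leukocyte tetraspanin gene, was at 9.25 and 7.79 against 6.95 and 7.11, with 7.33 and 7.75 in the wild type (1.49, SE 0.48). Msr1, encoding a scavenger receptor, was at 8.49 and 6.30 against 4.98 and 5.93 (1.94, SE 0.70). Trem2, encoding a lipid-sensing receptor, was at 7.59 and 6.53 against 5.84 and 4.98, with 5.11 and 6.63 in the wild type (1.65, SE 0.61).

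Homozygote 1 was the highest array for this list, and homozygote 2 was not above wild type 2. Against the 6-array mean, the list's median level was 1.24 in homozygote 1, 0.21 in homozygote 2, -0.29 and -0.48 in the heterozygotes and -1.06 and 0.29 in the wild type. The log2 of the summed intensity of all 30 markers measured was 14.96 and 14.05, 13.72 and 13.60, and 12.89 and 14.00 in the same order, and 3 markers were below the filter's cut in every array. Without homozygote 1 the median difference was 0.72. With sex as a term it was -0.20, against 1.24 without it. The markers described above stayed above 0 but were smaller, at 0.29 for Cd68, 0.13 for Trem2, 1.08 for Cd53 and 1.76 for Msr1. Since the list median was below 0, they do not stand for the whole list in that fit. In bulk RNA more cells of a type and more RNA per cell cannot be told apart. The PU.1 core shown in the C1qc promoter was present in 13 of 17 list members that had a promoter in the table (76.5%), against 31.3% of 27025 genes. This motif was chosen after the values were seen, and a longer form searched first was found in a smaller share of both.

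Interferon-response genes were higher in homozygote 1. Of 26 tested members 25 had a positive difference, against 46.8% of all genes, and the median was 0.67. Only 8 had both homozygotes above both heterozygotes and 0 had both below, against 10.4% and 12.5% of all genes. Rsad2, encoding the antiviral enzyme viperin, was at 7.001 and 5.51 in the homozygotes, 4.16 and 4.96 in the heterozygotes and 4.71 and 4.58 in the wild type (1.69, SE 0.52), and its other probe set gave 0.70. Cxcl10, encoding a T cell chemoattractant, was at 5.58 and 5.84 against 4.43 and 5.24, with 5.55 and 5.09 in the wild type (0.88, SE 0.34). Oas2, encoding a sensor of double-stranded RNA, was at 6.05 and 5.19 against 4.71 and 4.89 (0.82, SE 0.32). Ifih1, encoding the RNA sensor MDA5, was at 8.71 and 7.74 against 7.67 and 7.05 (0.87, SE 0.39).

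The other members rested on 1 culture. The relative level of the interferon list was 1.16 in homozygote 1 and -0.10 in homozygote 2, against 0.10 and -0.21 in the heterozygotes and -0.93 and 0.13 in the wild type. The median difference was -0.00085 without homozygote 1, 1.30 without homozygote 2 and -0.60 with sex as a term. Xaf1, encoding an apoptosis-related interferon target, was at 10.28 in homozygote 1 and 4.60 in homozygote 2, with the heterozygotes at 8.97 and 8.40. Macrophage genes were high in the same culture, and their part in the interferon values was not tested. The response element core shown above for Rsad2 and Cxcl10 was present in the promoters of 12 of 21 list members in the table (57.1%), against 3.99% of 27025 genes. Among members with both homozygotes above both heterozygotes it was present in 4 of 6 (66.7%). The list was drawn up from genes known to respond to interferon, so a high share describes the list and not the genotypes.

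Of 19 tested chemokine and chemokine receptor genes 9 were above and 2 below, against 10.4% and 12.5% of all genes, with a median difference of 0.74 (0.42 to 0.75). Ccl2, encoding a monocyte attractant made by fibroblasts and macrophages alike, was at 11.02 and 10.51 in the homozygotes, 9.39 and 10.18 in the heterozygotes and 9.43 and 9.88 in the wild type (0.99, SE 0.36). Cxcl16, encoding a membrane-bound chemokine and scavenger receptor, was at 7.07 and 6.79 against 6.28 and 6.10, with 6.60 and 6.97 in the wild type (0.74, SE 0.25), and its other probe set gave 0.45. Ccl9, encoding a chemokine of myeloid cells, was at 10.30 and 7.39 against 6.51 and 6.20, with 6.59 and 7.42 in the wild type (2.49, SE 0.88). Without homozygote 1 the Ccl9 difference was 1.03. Ccl6, a related chemokine gene singled out after its values were seen, was at 10.28 and 5.35 against 1.94 and 5.02 (4.34), a gap set by 1 culture on each side. Mmp12, encoding macrophage elastase, was high in homozygote 1 alone, at 9.25 and 4.90 against 5.07 and 4.93. With sex as a term the chemokine median was -0.39, and over the brightest 30% of probe sets it was 0.06. Cxcr4, encoding a receptor on leukocytes, was below the filter, at 4.96 and 5.02 against 2.37 and 4.53.

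**Figure D4:**
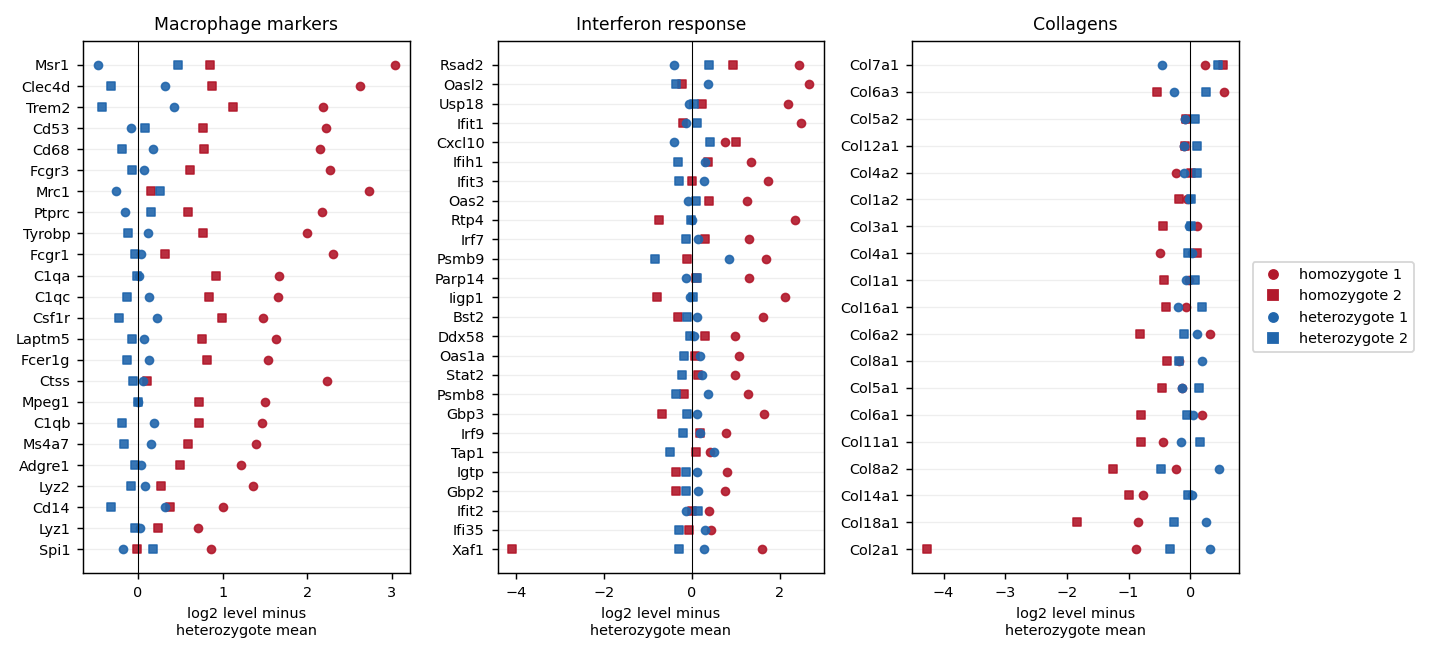
Log2 level of each tested member of the macrophage, interferon and collagen lists minus its heterozygote mean, with red points for homozygotes and blue points for heterozygotes. Homozygote 1 lies far to the right for macrophage and interferon genes (Rsad2 at 7.001 against 4.16 and 4.96), while homozygote 2 lies near the heterozygotes for most interferon genes and to the left for several collagens (Col2a1 at 2.96 against 7.55 and 6.91).

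Of 7 tested adipocyte markers 4 were above and 1 below, against 10.4% and 12.5% of all genes, with a median of 0.83 that was 0.29 without heterozygote 2. Fabp4, encoding a fatty acid carrier of fat cells and macrophages, was at 8.58 and 8.88 in the homozygotes, 7.65 and 8.11 in the heterozygotes and 8.26 and 8.09 in the wild type (0.85, SE 0.26). Lpl, encoding lipoprotein lipase, was at 11.52 and 9.97 against 9.59 and 8.72, with 7.55 and 8.91 in the wild type (1.59, SE 0.66), a difference that was 0.23 with sex as a term. Cd36, encoding a fatty acid transporter that macrophages also carry, was at 8.22 and 5.37 against 4.81 and 5.20 (1.78, SE 0.84), a difference that was 0.36 without homozygote 1. With sex as a term the adipocyte median was 0.39. The share of these values that belongs to macrophages was not tested. Sterol synthesis genes had 5 of 15 tested members above and 0 below, against the same 10.4% and 12.5%, with a median of 0.33. Among them Lss, encoding lanosterol synthase, was at 8.86 and 8.50 against 7.67 and 8.25 (0.72, SE 0.37). Without heterozygote 1, the low array there, the sterol median was -0.08, and without homozygote 1 it was 0.06. It was 0.62 without homozygote 2, 0.74 without heterozygote 2 and 0.99 with sex as a term.

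Most collagen genes had lower means in the homozygotes than in the heterozygotes. Of 19 tested members 7 had both homozygotes below both heterozygotes and 0 had both above, against 12.5% and 10.4% of all genes. In 17 the difference was negative, against 53.2% of all genes, and the median was -0.23. Axon guidance and cadherin genes, described below, were mostly negative too. Col18a1, encoding a basement membrane collagen, was at 8.16 and 7.17 in the homozygotes, 9.27 and 8.76 in the heterozygotes and 7.46 and 7.99 in the wild type (-1.35, SE 0.40). Col14a1, encoding a fibril-associated collagen, was at 7.06 and 6.82 against 7.85 and 7.79, with 6.70 and 7.68 in the wild type (-0.88, SE 0.35). Col11a1, encoding a minor fibrillar collagen, was at 9.95 and 9.59 against 10.24 and 10.54, with 9.72 and 9.72 in the wild type (-0.62, SE 0.24). Col2a1, the main collagen gene of cartilage, was at 6.35 and 2.96 against 7.55 and 6.91 (-2.57, SE 1.01). Both wild type arrays were below the heterozygotes in all 4 genes, so the heterozygotes were the high arrays. The relative level of the list was 0.15 and -0.08 in the homozygotes, 0.29 and 0.47 in the heterozygotes and -0.61 and -0.08 in the wild type. The collagen median was -0.44 without homozygote 1, -0.10 without homozygote 2 and -0.85 with sex as a term.

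Other matrix genes were less one-sided. Matrix glycoproteins and proteoglycans had 1 of 32 members above and 5 below, with a median of -0.14 (-0.22 to -0.05). Fbn2, encoding the microfibril protein fibrillin 2, was at 9.71 and 8.51 against 10.00 and 10.75 (-1.27, SE 0.74), and its other probe set gave -0.75. Dcn, encoding the small proteoglycan decorin, went the other way at 12.11 and 11.44 against 10.93 and 11.01 (0.81, SE 0.55), but its difference was -0.86 with sex as a term. Matrix proteases and their inhibitors had 0 of 16 above and 3 below, with a median of -0.01 (-0.10 to 0.09). Adamts4, encoding an aggrecan-cleaving protease, was at 7.51 and 7.46 against 7.97 and 7.92, with 7.19 and 7.63 in the wild type (-0.46, SE 0.24).

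The genes closest to Cas itself differed little between the genotypes. Among 33 tested Cas partners and focal adhesion components 3 were above and 3 below in all arrays (9.09% each, near the background), with a median of 0.03 (-0.08 to 0.04). The members ranged from -0.40 to 0.38. Rapgef1, encoding an exchange factor that binds Crk, was at 7.24 and 7.50 in the homozygotes, 7.59 and 7.96 in the heterozygotes and 8.14 and 7.81 in the wild type (-0.40, SE 0.26). Its other probe set gave 0.06, and with sex as a term its difference was -0.07. Git1, encoding a focal adhesion scaffold, was at 6.50 and 6.75 against 6.98 and 6.92, with 7.18 and 7.005 in the wild type (-0.33, SE 0.22). Yes1, a Src family kinase gene, was at 7.20 and 6.92 against 7.21 and 7.35 (-0.22, SE 0.24), and its sign turned to 0.12 with sex as a term. Integrin genes had 0 of 13 above and 2 below, with a median of 0.06 (-0.25 to 0.18). Itgb5, encoding the integrin beta 5 subunit, was at 10.73 and 10.73 against 10.98 and 11.01 (-0.27, SE 0.29).

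Actin and serum response factor targets had 1 of 25 members above and 1 below, with a median of 0.04 (-0.24 to 0.33). Mylk, encoding myosin light chain kinase, was at 8.96 and 9.85 in the homozygotes and 8.36 and 8.96 in the heterozygotes (0.74, SE 0.42). The CArG box, the site of serum response factor, was found in the promoters of 5 of 21 list members in the table (23.8%), against 1.81% of all genes. This list was drawn up from targets of that factor, so the share describes the list and not the genotypes. Immediate early genes had 0 of 23 above and 2 below, with a median of 0.08 (-0.47 to 0.54). Phlda1, a growth factor-induced gene, was at 8.49 and 8.63 against 8.89 and 9.14 (-0.45, SE 0.56), while wild type 1 was at 10.77, and with sex as a term its difference was 1.36.

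Of 26 tested Wnt pathway genes 8 were below, against 12.5% of all genes, and 2 above, against 10.4%, with a median of -0.13 (-0.35 to 0.05). Lgr6, encoding a receptor for R-spondins, was at 4.40 and 3.99 in the homozygotes, 5.18 and 5.07 in the heterozygotes and 5.62 and 5.15 in the wild type (-0.93, SE 0.27). Both of its homozygote values were below the filter's cut of 4.575. Nkd2, encoding an inhibitor of the pathway, was at 5.25 and 5.58 against 6.07 and 6.20, with 6.18 and 5.53 in the wild type (-0.72, SE 0.29). Wnt5a, a ligand of limb outgrowth and migration, was at 7.80 and 8.14 against 8.64 and 8.48, with 8.75 and 8.23 in the wild type (-0.59, SE 0.27). The list's median was above 0 without homozygote 2 (0.05) and without heterozygote 1 (0.02). The Wnt5a values of the homozygotes were below all 4 other arrays. The difference with sex as a term was -0.07 for Nkd2 and -0.07 for Wnt5a.

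The other growth factor pathways had members on both sides. TGF-beta and BMP genes had 1 of 26 above and 2 below, with a median of -0.07 (-0.13 to -0.04). Tgfb3, encoding a TGF-beta ligand, was at 9.79 and 9.80 against 10.29 and 10.21, with 9.84 and 9.79 in the wild type (-0.45, SE 0.21). FGF and receptor tyrosine kinase genes had 2 of 20 above, including Fgf5, and 4 below, with a median of -0.07 (-0.25 to 0.12). Fgf2, another growth factor of the family, was at 4.86 and 5.32 against 3.37 and 4.15 (1.33, SE 0.63), and Fgfr1, encoding a receptor for both, was at 8.85 and 8.44 against 9.01 and 9.24 (-0.48, SE 0.25). Nrg1, encoding the ErbB ligand neuregulin 1, was at 5.19 and 4.91 against 5.94 and 5.65 (-0.74, SE 0.29), a difference that was -0.12 with sex as a term. Insulin-like growth factor genes had 1 of 17 above and 3 below, with a median of -0.03 (-0.31 to 0.15).

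Hox genes, which pattern the body axis and limbs, were tested as markers of where in the body a fibroblast arose. Of 26 tested members 7 were above and 0 below, against 10.4% and 12.5% of all genes, 22 had a positive difference, against 46.8%, and the median was 0.33. Hoxc6 was at 7.15 and 7.64 in the homozygotes, 6.41 and 7.04 in the heterozygotes and 8.29 and 7.81 in the wild type (0.67, SE 0.33). Hoxa7 was at 5.45 and 6.49 against 5.03 and 5.37, with 7.20 and 6.63 in the wild type (0.77, SE 0.40). In both genes the wild type was higher still. The Hox median was 0.09 without heterozygote 1, 0.14 without homozygote 2 and 0.48 with sex as a term.

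Among 38 other mesenchymal position factors 4 were above, near the background of 10.4%, and 10 below, against 12.5%, with a median of -0.15 (-0.33 to -0.06). Tbx5, the factor of the forelimb and heart field, was at 6.03 and 6.53 against 4.59 and 5.11, with 5.80 and 6.11 in the wild type (1.43, SE 0.30), but its other probe set gave 0.23. Tcf21, a factor of visceral mesenchyme, was at 5.67 and 6.002 against 4.64 and 4.93, with 4.02 and 4.90 in the wild type (1.05, SE 0.34), a difference that was 0.17 with sex as a term. Irx3, a homeobox gene of limb and neural patterning, was at 8.19 and 7.67 against 8.94 and 8.85, with 7.38 and 7.93 in the wild type (-0.97, SE 0.30). Foxc2, a forkhead gene of somites and vessels, was at 6.11 and 6.60 against 6.97 and 7.17, with 7.59 and 7.24 in the wild type (-0.72, SE 0.27). Retinoid genes had 1 of 11 above, Aldh1a1, and 1 below, Rarg, encoding a retinoic acid receptor, at 7.63 and 7.99 against 8.25 and 8.42 (-0.52, SE 0.31), while its other probe set gave -0.12. How the body parts left after removal of the head and organs were represented in each culture was not tested.

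Axon guidance genes, the list that includes Stmn2, had 1 of 24 above and 8 below, against 10.4% and 12.5% of all genes, with a median of -0.24 that was -0.42 without homozygote 1 and -0.05 without homozygote 2. Epha7, an ephrin receptor gene, was at 6.92 and 6.39 against 7.40 and 7.47, with 5.69 and 6.77 in the wild type (-0.78, SE 0.40). Of these 24 genes 22 had a negative difference, against 53.2% of all genes. Cadherin genes had 0 of 15 above and 5 below, against the same 10.4% and 12.5%, and 14 had a negative difference. Their median was -0.11 (-0.40 to -0.20). Pcdh17, encoding a protocadherin, was at 5.22 and 5.33 against 5.96 and 5.70, with 4.64 and 5.07 in the wild type (-0.56, SE 0.25). Cdh4, encoding R-cadherin, was at 4.96 and 3.72 against 5.10 and 5.35, with 5.05 and 5.12 in the wild type (-0.89, SE 0.41), and its other probe set gave -0.27. Of 10 tested neural and glial markers 1 was above and 3 below, Stmn2 among the latter. The summed level of the 16 measured markers was 9.69 and 9.51 in the homozygotes, 10.69 and 11.21 in the heterozygotes and 11.40 and 11.07 in the wild type, a sum dominated by Stmn2 itself. For the other 15 markers it was 8.89 and 8.85 in the homozygotes, 8.90 and 9.29 in the heterozygotes and 9.80 and 9.09 in the wild type. The gap in the sum was thus mostly that of Stmn2, but a sum follows the bright markers and can hide gaps in dim ones. Erbb3 was also below, at 4.43 and 4.83 against 5.14 and 5.79, and Mbp was the member above (difference 0.63). Among markers under the filter, Cdh19 was at 1.69 in both homozygotes against 4.40 and 5.25. Foxd3 there was at 2.39 and 2.75 against 2.82 and 5.38, while Elavl3 went the other way, at 3.53 and 4.40 against 3.24 and 1.43. Ngfr, encoding a nerve growth factor receptor of neural crest cells, was at 5.26 and 4.76 against 5.95 and 6.58 (-1.25, SE 0.69), and this turned to 0.94 with sex as a term. The median difference of the neural list was -0.28 (-0.73 to -0.13), or 0.14 with sex as a term.

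The lists of this paragraph had at most 3 members above or below. Hypoxia and glycolysis genes had 1 of 18 above and 0 below, with a median of 0.09 (-0.12 to 0.35). Imprinted genes had 3 of 15 above (20%, against 10.4% of all genes) and 0 below, with a median of -0.0021 (-0.30 to 0.30). Stress and unfolded protein response genes had 0 of 20 above and 3 below (15%), with a median of -0.07 (-0.21 to 0.0019) that was 0.14 with sex as a term. Prostaglandin and IL6 family genes had 0 of 15 above and 3 below (20%, against 12.5% of all genes). Their median was 0.02 (-0.20 to 0.12), or -0.66 with sex as a term. In the last list Il33, encoding an alarmin of the interleukin 1 family, was at 6.01 and 4.64 in the homozygotes, 6.31 and 6.80 in the heterozygotes and 4.52 and 5.89 in the wild type (-1.23, SE 0.60). Without normalization, where the median of all genes was -0.126, the medians of Cas partners, integrins, actin targets, immediate early genes and mitosis genes were -0.09, -0.04, -0.02, -0.06 and -0.04 and no longer above 0. The same held for the prostaglandin and IL6 family (-0.09) and for pericyte and smooth muscle markers (-0.03, against 0.01 after normalization).

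Cell division genes did not order the cultures by genotype. Of 24 tested mitosis genes 0 were above and 0 below, with a median of 0.10 (-0.34 to 0.54). The mitosis median was below 0 without homozygote 1 (-0.34) and without heterozygote 1 (-0.01). Of 22 DNA replication genes 3 were above and 0 below, with a median of 0.15 (-0.10 to 0.37) that was below 0 only without homozygote 1. Fen1, encoding a flap endonuclease, was at 8.10 and 7.96 against 7.68 and 7.48 (0.45, SE 0.24), a difference that was 0.09 with sex as a term. Among 18 p53 targets and cell cycle inhibitors 1 was above and 4 below, against 10.4% and 12.5% of all genes. Cdkn1c, encoding the imprinted cell cycle inhibitor p57, was at 9.45 and 9.11 in the homozygotes, 8.12 and 8.45 in the heterozygotes and 8.37 and 9.09 in the wild type (1.00, SE 0.32), a difference that was 0.29 with sex as a term. Perp, a p53 target of cell adhesion and apoptosis, was at 7.93 and 8.11 against 8.88 and 8.65, with 8.98 and 8.68 in the wild type (-0.74, SE 0.24). Bbc3, encoding the apoptosis inducer PUMA, was at 7.36 and 7.43 against 7.92 and 7.92, with 7.28 and 7.77 in the wild type (-0.53, SE 0.25).

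Most endothelial, cartilage, epithelial and skeletal muscle markers were below the filter. By contrast 10 of 12 pericyte and smooth muscle markers passed it, and Acta2 among them was at 13.30 to 13.68 over the 4 arrays. Endothelial markers had 3 of 8 tested members above and 1 below, against 10.4% and 12.5% of all genes. Flt1, a VEGF receptor gene, was at 7.12 and 7.44 against 5.76 and 6.82, with 7.09 and 6.95 in the wild type (0.99, SE 0.37). Its other probe sets gave 1.04, 0.40 and -0.29 and thus did not share 1 direction. Cd34, a surface marker of vessels and progenitors, was at 7.38 and 7.10 against 6.65 and 5.97 (0.93, SE 0.42), and its difference was -0.16 with sex as a term. Cartilage, tendon and bone markers had 1 of 8 above and 3 below. Col10a1, a collagen gene of hypertrophic cartilage, was at 3.88 and 4.57 against 5.96 and 5.73 (-1.61, SE 0.51), with both homozygotes below the filter's cut of 4.575. Pericyte and smooth muscle markers had 1 of 10 above and 3 below, and Cspg4, encoding the NG2 proteoglycan, was at 7.68 and 7.55 against 8.10 and 8.17, with 7.80 and 7.88 in the wild type (-0.52, SE 0.21). Epithelial markers had 1 of 8 above and 2 below. None of 6 tested skeletal muscle markers was above or below, and all 11 erythroid and liver markers were below the filter's cut in every array. Ribosomal protein genes, a stable group in most cells, had 0 of 16 above and 2 below and a median of -0.01 (-0.05 to 0.0048).

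**Figure D5:**
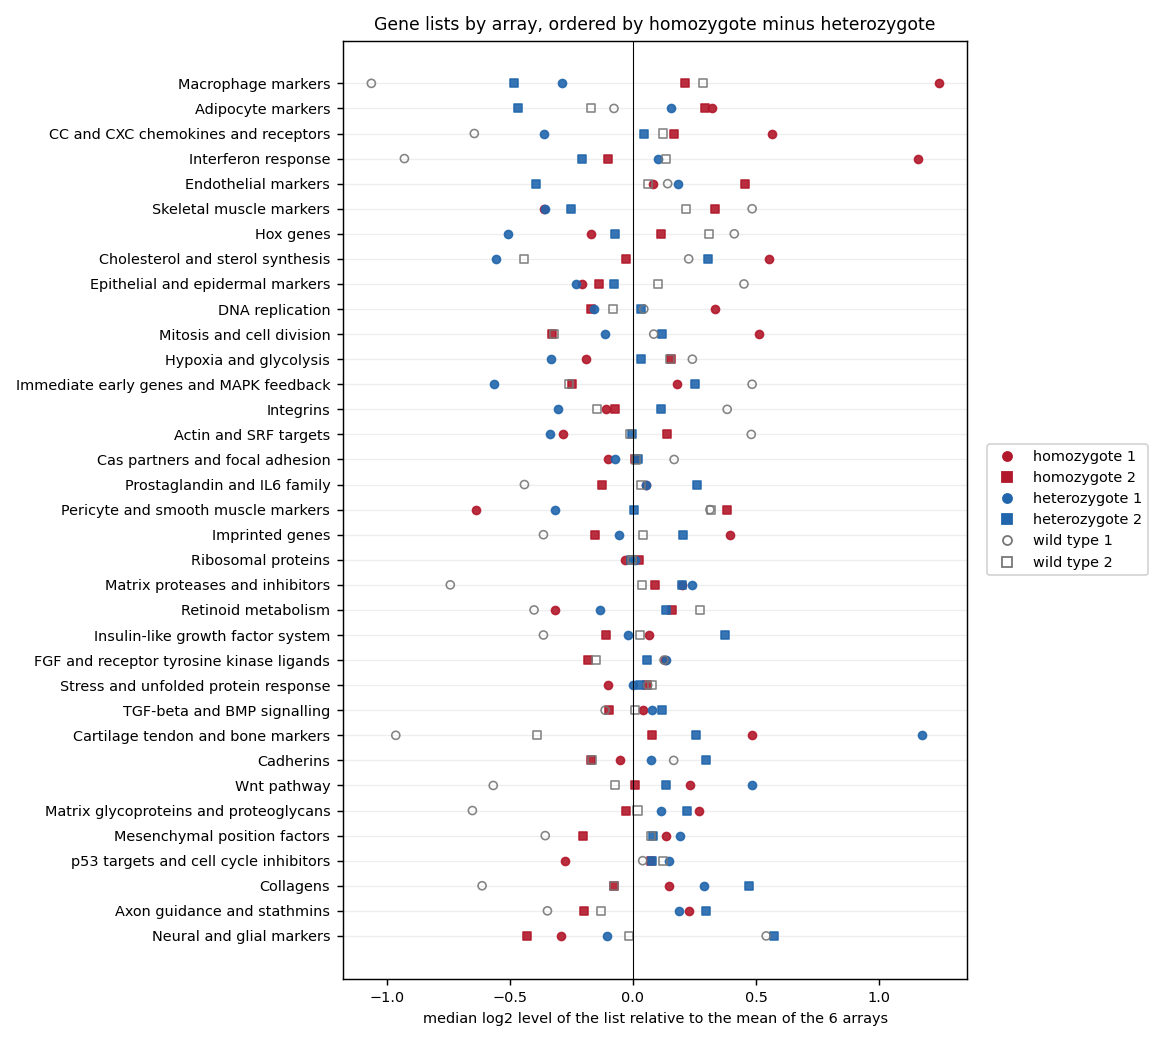
Median log2 level of each gene list in each array, relative to the mean of the 6 arrays, with lists ordered by the homozygote minus heterozygote difference. Macrophage genes head the order at 1.24 and 0.21 in the homozygotes against -0.29 and -0.48 in the heterozygotes, and the open wild type points lie at -1.06 and 0.29.

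Genes linked to Bcar1 travel with the deleted or intact allele in an intercross, so the neighbourhood of the gene was described on its own. It held 133 tested genes within 10 Mb of Bcar1, of which 17 were above (12.8%) and 17 below (12.8%), near the 10.4% and 12.5% of all genes, with a median of -0.04. At an unadjusted p under 0.05 in limma 0 of the 133 were higher, against 107 of all 10980 genes (0.974%). Lower were 4 of the 133, a larger share than the 102 of all 10980 genes (0.929%). These 4, named after their values were seen, were Cdh3, Cenpn, Foxc2 and Hsf4. Cdh3 and Cenpn are also among the leading lower genes described above.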

How the data were processed

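Total RNA of 6 primary fibroblast cultures, 2 per genotype, was hybridized to Affymetrix arrays, 1 array each. The deposited values are linear intensity values per probe set; the sources used here do not say how the authors summarised and scaled them. Gene names came from the platform annotation, and 34945 probe sets had 1 symbol, 932 several and 9160 none. Chromosomes came from RefSeq (GRCm38.p6), where 204 identifiers found no match.

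Control probe sets (64) were removed. The values were taken as log2(intensity + 1.776), the added 1.776 being the 10th percentile of all intensities, and quantile-normalized. Fold changes are on that scale and understate the change of dim genes. The brightest 50% of probe sets by mean over the 6 arrays were kept (mean of at least 4.575). Single arrays of a gene that passed can lie below this cut. limma 3.58.1 in R 4.3.3 was fitted to all 6 arrays, so the wild type shares in the estimate of spread (3 residual and 3.284 prior degrees of freedom), and p-values were adjusted by Benjamini-Hochberg over all tested probe sets. The fit was tested on simulated data. Arrays have no read depth, and their number (2 per genotype) limits the precision.

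The genes named were drawn from the 15 with the smallest p, the 8 with the largest difference in each direction, and up to 4 members per list by p. The 15 and the 8 were taken among genes whose arrays do not overlap, with predicted genes left out. For the 8, genes where arrays of 1 genotype lie further apart than the means were also left out. Not all genes that met these rules are described in the text. Bcar1, Efs, Cxcr4 and the sex-linked and fibroblast genes were checks, and Xaf1, Ccl6, Mmp12 and Hsf4 were named after their values were seen. The gene lists and the members described were chosen with earlier results of these data known. The alternatives tried were other normalizations, pseudocounts, brightness filters, 4 arrays only, a replicate block, embryo sex as a term and each array left out.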

Additional observations from a re-analysis of the deposited data

Results flagged for a closer look

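Sex-linked genes lie outside the autosomal comparison and differed widely between the genotypes. Eif2s3y was higher in the homozygotes by 7.21 on the log2 scale and Uty, another Y-linked gene, by 4.29. The 2 Xist probe sets differed by -6.16 and -5.77. They are given because they are a signal in data the autosomal comparison does not use.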

How the results depend on the processing

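No probe set passed an adjusted p of 0.05 in limma under any of 19 alternatives, and the lowest adjusted p of a named gene was 0.454. The 400 probe sets with an unadjusted p under 0.05 became 1386 with no filter (722 higher, 664 lower), 147 over the brightest 30% (66, 81) and 1339 with sex as a term (581, 758); leaving out 1 array gave 261 to 656, with 166 to 308 higher and 95 to 348 lower. Without normalization 101 were higher and 323 lower. Genes with both homozygotes above both heterozygotes were 449 without normalization, 2221 with no filter and 712 over the brightest 30%, and genes below were 2557, 2428 and 877. Leaving out 1 array gave 2853 to 3599 above and 3086 to 4214 below. Those at least 1 log2 apart were 68, 675 and 37 above and 76, 575 and 9 below in the same settings, 68 and 19 with a pseudocount of 16, and 139 to 253 and 92 to 198 with 1 array left out.

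The replicate numbers do not pair the samples: deviations of same-numbered homozygotes and heterozygotes correlated at -0.143. With the replicate number as a block 281 probe sets had an unadjusted p under 0.05, 162 higher and 119 lower, and the crossed pairing, chosen after seeing the data, gave 445.

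Of 2013 gene values 10 reversed, in 8 of 115 tested genes, the cause not tested. With sex as a term these were Bcar1 (0.95), Cd34 (-0.16), Dcn (-0.86), Ngfr (0.94), Phlda1 (1.36) and Yes1 (0.12). Without homozygote 1 they were Bcar1 (0.17), Cenpe (-0.26) and Mmp12 (-0.10), and without heterozygote 2 Bcar1 (0.06). Leaving out 1 array gave ranges of -0.18 to 0.17 for Bcar1, -0.26 to 0.96 for Cenpe and -0.10 to 4.25 for Mmp12. Of 525 list medians 44 moved by more than the spread between replicates.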
